A study of Mus musculus with 36 samples.

Results

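Rescue keratinocytes were compared with PKP4-KO keratinocytes after 72 h in low calcium medium (LCM), in 3 libraries of each out of 36 in the series, chosen by genotype, medium and time. The titles of the libraries carry HD where the time is given here as 72 h and LD where it is 24 h. They do not write the time itself. Both groups were primary mouse keratinocytes isolated from newborn pups, and both carried the Pkp4 tm1b allele, in which exon 9 is removed (the lacZ cassette had been taken out with FLPe, on a C57BL/6J background). Rescue cells had in addition been transduced with a lentivirus (pLVX-IRES-puro) encoding human PKP4 with EGFP at its N-terminus and selected with puromycin as a stable line, so that the transgene was the human protein under the promoter of the vector, in place of the mouse gene under its own. Transduction and puromycin went with the Rescue group and cannot be told apart from PKP4 itself, since no library of PKP4-KO cells with GFP alone was used here. LCM contained 50 µM CaCl2. The 3 WT libraries of the same medium and time are given as values beside the comparison, and Rescue against PKP4-KO at 24 h in LCM and at 72 h in high calcium medium (HCM, with 1.2 mM CaCl2 added) are used to show where the 72 h LCM comparison differed.

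Plakophilin 4 (PKP4, also called p0071) belongs to the armadillo proteins of the p120-catenin family and is found at adherens junctions, at desmosomes and in the cytoplasm, where it has been linked to the regulation of RhoA. Keratinocytes kept in low calcium stay largely as a single layer of growing cells with few mature contacts, because cadherins need extracellular calcium to bind each other. Adding calcium starts junction assembly and the first steps of terminal differentiation. The 72 h LCM comparison therefore asks which transcripts differed with and without GFP-PKP4 before such contacts are induced.

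The exon removed in both groups is described as exon 9, without a transcript or coordinates in the sources used here. Shown is exon 9 of the transcript Pkp4-210, on the + strand at chr2:59142038-59142257 (GRCm39). Whether it is the deleted exon was not checked, since exon numbers can differ between transcripts. The exon shown is 220 bases long, a length that leaves a remainder of 1 when divided by 3. It is a coding exon, given here with 20 bases of the adjoining introns on either side (chr2:59142018-59142277) and with the exon in capitals.
Pkp4 exon 9: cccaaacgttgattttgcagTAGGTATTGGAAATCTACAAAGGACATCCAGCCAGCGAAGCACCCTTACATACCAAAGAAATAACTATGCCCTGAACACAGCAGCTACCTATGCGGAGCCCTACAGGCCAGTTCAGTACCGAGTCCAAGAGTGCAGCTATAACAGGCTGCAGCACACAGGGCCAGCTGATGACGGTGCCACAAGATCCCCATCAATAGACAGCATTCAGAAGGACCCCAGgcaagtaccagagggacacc

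GFP-PKP4 reads were high in each Rescue library and low in each PKP4-KO library. The level, in CPM (reads of the gene relative to all reads of its library, scaled with TMM factors), was 562, 331.7 and 336 in Rescue and 2.07, 0.839 and 3.0 in PKP4-KO, beside 5.02, 3.09 and 2.55 in WT. These values stood for 15325, 4505 and 6403 reads in Rescue, 34, 10 and 60 in PKP4-KO and 100, 78 and 56 in WT. The Rescue libraries did not overlap with either other group, and the origin of the few reads in cells without the transgene was not tested. The log2 fold change was 7.65 ± 1.0 (SE, n = 3 per group; adjusted p = 4.33e-07, edgeR quasi-likelihood test with Benjamini-Hochberg adjustment). An exact permutation test of the CPM values gave p = 0.1 (two-sided), the smallest value that 3 against 3 libraries allow.

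The endogenous gene Pkp4 (chr2:58991088-59185552, + strand) was low in both groups. Its CPM values were 10.004, 7.44 and 9.13 in Rescue, 14.1, 9.06 and 10.7 in PKP4-KO and 39.4, 44.7 and 39.1 in WT. The mean thus reached 27.5% of WT in PKP4-KO and 21.6% in Rescue, as measured over the whole gene, of which only exon 9 is removed. Rescue and PKP4-KO overlapped (log2 fold change -0.35 ± 0.16, adjusted p = 0.083, exact permutation p = 0.3), and without TMM factors the direction turned (0.0134, adjusted p = 0.975). Without PKP4-KO replicate 2 the lower value in Rescue passed the threshold (-0.48, adjusted p = 0.026). With an offset for gene length in each library it was -0.57 (adjusted p = 0.00302).

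**Figure D1:**
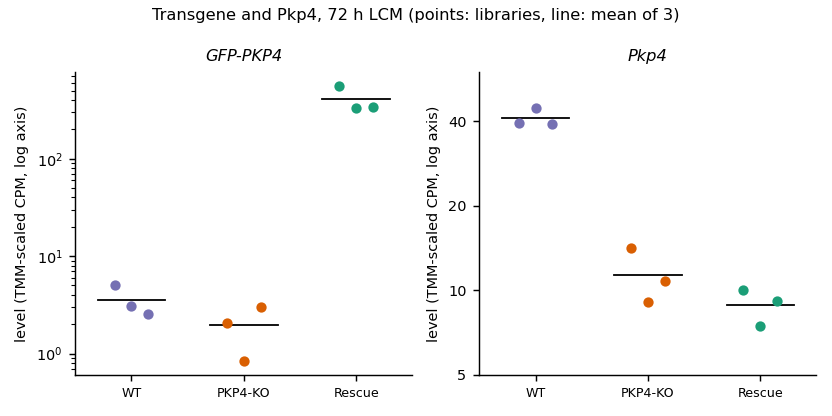
CPM of GFP-PKP4 and of the endogenous Pkp4 in each library at 72 h LCM, on a log axis, with 1 point for each of the 3 libraries of WT, PKP4-KO and Rescue. GFP-PKP4 lay between 331.7 and 562 CPM in Rescue and at 5.02 CPM or lower elsewhere, whereas Pkp4 lay between 39.1 and 44.7 CPM in WT and at 14.1 CPM or lower in both other groups.

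The 6 libraries held 15418812 to 22467187 counts. Replicate 2 stood apart from replicates 1 and 3 in both groups: in Rescue the Pearson correlation of log2 CPM across genes was 0.983 between replicates 1 and 3 but 0.932 and 0.951 for the pairs with replicate 2, and in PKP4-KO 0.977 against 0.957 for both pairs. It had more reads of short genes, with a median deviation of the shortest length decile from the mean of all 36 libraries of 0.80 on the log2 scale in Rescue replicate 2 (-0.97 and -0.52 in the other two) and 1.17 in PKP4-KO replicate 2 (0.17 and 0.02). The comparison itself also ran with gene length, from a median log2 fold change of -0.68 for the shortest length decile (median length 526 bp) to 0.57 for the longest (11866.5 bp). Counts were therefore also computed with an offset for gene length in each library, called the length offset, and without replicate 2 of both groups. Eif2s3y, on the Y chromosome, had 28 to 150 reads in the 12 Rescue libraries of the series, 0 to 3 in those of PKP4-KO and 0 to 5 in those of WT, whereas Xist had 350 to 1385 reads in WT, 0 to 13 in PKP4-KO and 0 to 37 in Rescue, so that the sex-linked reads separated the 3 groups. Rescue cells are described as made from PKP4-KO keratinocytes, whereas Y-linked reads were present in Rescue and nearly absent in PKP4-KO. The reason for this was not tested. The animals behind each culture are not given in the sources used here. In each value of Rescue against PKP4-KO, a difference in the origin of the cells therefore cannot be told apart from the transgene.

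**Figure D2:**
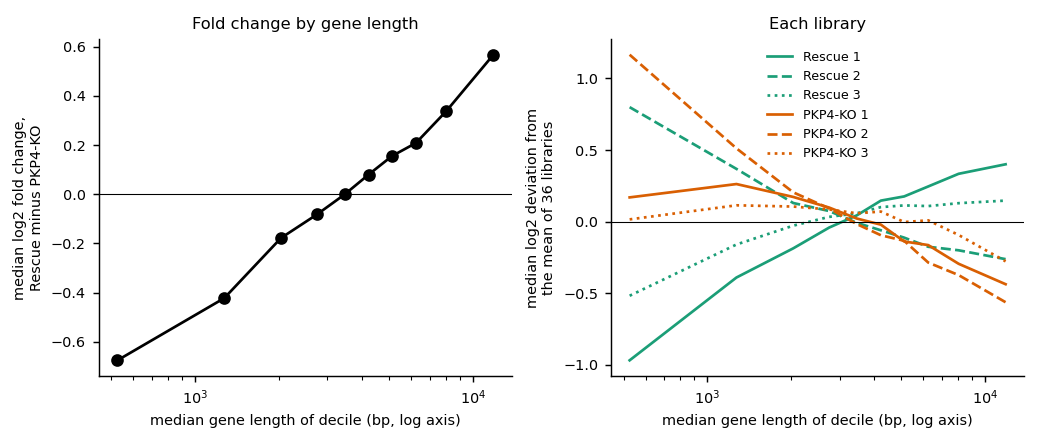
Median deviation of the genes of each length decile, in log2 units from the mean of all 36 libraries, for each Rescue and PKP4-KO library at 72 h LCM, plotted against the median length in bp on a log axis (right), beside the median log2 fold change of each decile (left). Replicate 2 of both groups lay highest for the shortest genes, at 0.80 and 1.17, and Rescue replicate 1 lowest, at -0.97.

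All 10 keratinocyte markers were expressed in both groups, 4 of them higher in Rescue (Cdh1, Cdh3, Dsg3 and Itga6) and 2 lower (Krt5 and Krt14). Several markers of other skin cells were at or near 0. Cd207, Sox10, Tyr, Cldn5 and Atoh1 had no read in any of the 6 libraries, and Ptprc had 4 at most. Pecam1 of the endothelial list was read in each library, with 48, 34 and 44 reads in Rescue and 34, 49 and 70 in PKP4-KO. So was Isl1 of the Merkel cell list, with 97, 24 and 50 reads in Rescue and 53, 30 and 66 in PKP4-KO. Neither passed the test. Krt20 of the Merkel cell list had 85, 63 and 63 reads in Rescue and 0, 0 and 3 in PKP4-KO. Of the other markers of such cells, Col1a1 had 79 reads in Rescue replicate 1 and 39 in PKP4-KO replicate 3, with 0 or 1 in the other libraries, and Lyz2 had 65 in PKP4-KO replicate 3. Cd68, a lysosomal glycoprotein listed among the immune markers, was expressed throughout, with 79.3, 177 and 88 CPM in Rescue and 16.5, 31.5 and 15.4 CPM in PKP4-KO. Sox2, a factor listed among the Merkel cell markers, was expressed as well, with 36.2, 20.2 and 31.9 CPM in Rescue, 21.6, 11.7 and 19.6 CPM in PKP4-KO and 19.2, 21.7 and 21.3 CPM in WT. It passed as higher in Rescue, although the groups overlapped (0.74 ± 0.28, adjusted p = 0.0376). Summed over the list, immune markers came to 80.3 to 177.8 CPM in Rescue and 17.2 to 32.0 CPM in PKP4-KO, nearly all of it Cd68, and fibroblast markers to 0.221 to 9.45 CPM and 1.34 to 6.10 CPM. Melanocyte and endothelial markers stayed at 6.48 CPM or lower in each of the 6 libraries, and 1 gene of each of these 4 lists was higher in Rescue (Cd68, Pdgfra, Mitf and Kdr) while Prrx1 of the fibroblast list was lower. Their part in the results was not tested. In bulk RNA, fewer cells in a state and less RNA per cell cannot be told apart.

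Of 15114 tested genes, 6278 (41.5%) passed an adjusted p of 0.05, 3517 (23.3%) higher and 2761 (18.3%) lower in Rescue. With a change of at least 1 on the log2 scale, 2184 (14.5%) were higher and 1383 (9.15%) lower, together 23.6%. The libraries of the groups did not overlap for 6424 genes (42.5%), with Rescue above PKP4-KO in 23.5% and below in 19%. The median over all tested genes was a log2 fold change of 0.03, and 0.38 without TMM factors, where 32.2% of genes were called higher and 9.67% lower, so that 76.9% of the calls were higher, against 56.0% with them. With the length offset 40.9% were called, 20.6% higher and 20.3% lower, and without replicate 2 of both groups 21.8% higher and 16.8% lower. Fitted to the 6 libraries alone, 3663 genes were called. These shares are the background for each gene list, whose members are counted as called by the same fit.

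**Figure D3:**
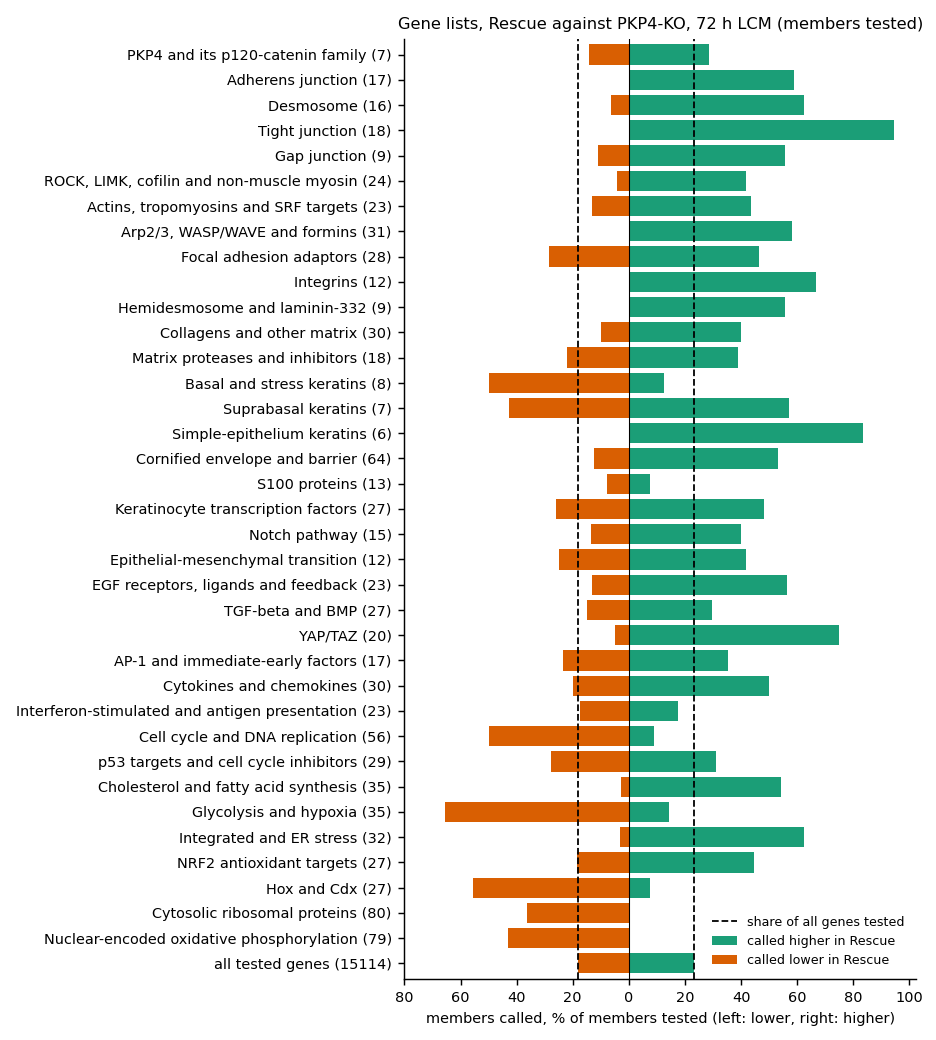
Percentage of the tested members of each gene list called higher (right) and lower (left) in Rescue than in PKP4-KO at 72 h LCM, with dashed lines at the background of 23.3% higher and 18.3% lower over all tested genes. Tight junction genes stood at 94.4% higher, and genes of glycolysis and hypoxia at 65.7% lower.

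Tight junction transcripts were higher in Rescue almost throughout. Of 18 tested members of the list, 17 rose and 0 fell, 14 of them by at least 1 on the log2 scale, and the median log2 fold change was 1.92. Cldn4, a claudin of the tight junction strands, had 191, 232 and 201 CPM in Rescue, 28.9, 39.2 and 23.6 CPM in PKP4-KO and 97.5, 90.4 and 108 CPM in WT. The Rescue libraries all lay above the PKP4-KO libraries by a wide margin and also above WT (log2 fold change 2.77 ± 0.18, adjusted p = 8.65e-13). Cldn1, the claudin without which the epidermal barrier leaks, had 36.2, 21.7 and 25.7 CPM in Rescue and 3.72, 4.86 and 4.95 CPM in PKP4-KO, with WT at 40.9, 49.9 and 50.8 CPM, and thus rose 6.19-fold (log2 fold change 2.63 ± 0.20, adjusted p = 2.85e-11). Tjp1, which encodes the scaffold ZO-1, stood at 93.3, 48.7 and 68.5 CPM against 12.6, 11 and 14.3 CPM, with WT at 43.5, 64.1 and 42.5 CPM, and did not overlap between Rescue and PKP4-KO (log2 fold change 2.47 ± 0.28, adjusted p = 3.11e-08). Occludin (Ocln, 2.63), tricellulin (Marveld2, 3.83) and Cldn23 (4.01) rose as well, from mean levels near or below 1 CPM in PKP4-KO. With the length offset 16 members were higher, with a median of 1.88.

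Desmosomal cadherin genes were largely higher in Rescue. Of 16 tested desmosome genes, 10 were higher and 1 was lower, with a median of 1.22. Dsg3, the desmoglein of the basal layers, had 360.2, 188 and 283 CPM in Rescue and 80.6, 68.1 and 87.7 CPM in PKP4-KO, beside 193, 278 and 228 CPM in WT. Each Rescue library lay above each PKP4-KO library, although replicate 2 was the lowest of both groups (log2 fold change 1.81 ± 0.27, adjusted p = 3.57e-06). Dsc2, a desmocollin, was at 33.5, 16.1 and 16.5 CPM against 1.1, 0.755 and 0.70 CPM, a 25.8-fold difference (4.69 ± 0.45, adjusted p = 1.82e-09). Dsg1b, Dsc3 and the low Dsg2 also rose, by 2.65, 1.54 and 5.11, and desmoplakin (Dsp), which ties desmosomes to keratin filaments, by 1.03 (adjusted p = 0.00977). Plakoglobin (Jup) and Pkp1 overlapped between the groups, at log2 fold changes of 0.18 and 0.19 with adjusted p of 0.499 and 0.183. Pkp2, a plakophilin of simple epithelia and heart, was the one member that fell, from 7.93, 5.03 and 3.8 CPM in PKP4-KO to 3.04, 1.55 and 2.2 CPM in Rescue (-1.28 ± 0.38, adjusted p = 0.00712), and this call was lost without PKP4-KO replicate 1 (-0.94, adjusted p = 0.0699) and without TMM factors (-0.88, adjusted p = 0.0593).

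Among the 7 tested genes of the p120-catenin family, Pkp4 included, 2 rose (28.6%) and 1, Pkp2, fell (14.3%). These shares were near the 23.3% and 18.3% over all tested genes. With the length offset 2 were higher and 3 lower. Arvcf, a catenin that binds classical cadherins, had 22.6, 19.4 and 23.1 CPM in Rescue and 13.4, 9.9 and 12.6 CPM in PKP4-KO (0.86 ± 0.15, adjusted p = 4.74e-05), and Pkp3, a plakophilin of simple and stratified epithelia, 656, 572 and 659.8 CPM against 447, 379 and 421 CPM (0.60 ± 0.14, adjusted p = 0.000931). In both genes Rescue lay above PKP4-KO without overlap. The p120-catenin gene Ctnnd1 itself, at 50.5, 95.9 and 60.2 CPM and 33.4, 67 and 32.5 CPM, overlapped and did not pass the test (0.64 ± 0.31, adjusted p = 0.099). Without PKP4-KO replicate 2, 4 members were higher and 2 lower, and without PKP4-KO replicate 1 none was lower.

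Adherens junction genes were higher in 10 of 17 tested members and lower in 0, with a median of 0.64. With the length offset 9 were higher and 1 lower, with a median of 0.38. Cdh1, the gene of E-cadherin, had 149.5, 103 and 121 CPM in Rescue, 42.1, 36.3 and 51.9 CPM in PKP4-KO and 68.2, 86.2 and 78.4 CPM in WT. The 3 Rescue libraries thus lay above all PKP4-KO and all WT libraries, and the rise over PKP4-KO was 2.87-fold (1.52 ± 0.18, adjusted p = 9.65e-08). Nectin2 and Nectin4, adhesion molecules that seed adherens junctions, rose by 1.9 and 1.83, and Afdn, the linker of nectins to actin, by 1.43 (adjusted p = 5.65e-05). Ctnna1 (α-catenin) rose by 0.78 (adjusted p = 8.31e-05), and vinculin (Vcl), which joins α-catenin under tension, by 1.04 (adjusted p = 4.63e-05). β-catenin (Ctnnb1) overlapped, with 496, 233 and 409 CPM in Rescue and 387, 265 and 450.2 CPM in PKP4-KO (0.05 ± 0.27, adjusted p = 0.911). Without replicate 2 or without replicate 3 of PKP4-KO, 1 member was called lower.

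Gap junction genes split by connexin. Of 9 tested, 5 rose and 1 fell. Gjb2 (connexin 26) had 331, 408 and 352 CPM in Rescue and 88.1, 113 and 84.7 CPM in PKP4-KO, beside 14.9, 13.5 and 19.7 CPM in WT, and so stood above WT in both groups (1.93 ± 0.21, adjusted p = 1.44e-08). Gjb6 (4.22) and Gjb5 (0.90), further epidermal connexins, also rose. Gja1 (connexin 43), the main connexin of basal keratinocytes, fell from 152, 178 and 171 CPM in PKP4-KO to 113, 89 and 93.4 CPM in Rescue, with WT lower at 48, 51.7 and 49.6 CPM, and the groups did not overlap (-0.76 ± 0.12, adjusted p = 5.98e-06).

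RhoA signalling, the pathway to which PKP4 has been linked, was followed through RhoA, its regulators and effectors. Rhoa itself overlapped, with 405, 369.5 and 432 CPM in Rescue and 386, 449.8 and 464 CPM in PKP4-KO (-0.11 ± 0.10, adjusted p = 0.433), but with the length offset it passed as lower (-0.44, adjusted p = 0.00959). Arhgef2, the exchange factor GEF-H1 that activates RhoA when released from microtubules, had 84.2, 78.1 and 73.6 CPM in Rescue against 42.4, 34.4 and 39.2 CPM in PKP4-KO and 22.8, 28.7 and 24.1 CPM in WT (1.02 ± 0.14, adjusted p = 1.01e-06). Net1, another RhoA exchange factor, went the other way, with 160.1, 167 and 145 CPM in Rescue, 352, 556 and 418 CPM in PKP4-KO and 173, 185 and 170.3 CPM in WT (-1.49 ± 0.19, adjusted p = 4.17e-07). Arhgdib, an inhibitor of GDP dissociation, rose by 1.63, the atypical GTPases Rhou and Rnd1 by 1.1 and 1.09, and Arhgap23 by 1.07.

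Downstream of RhoA, 10 of 24 tested genes of ROCK, LIMK, cofilin and non-muscle myosin were higher and 1 was lower (median 0.69, and 0.22 with the length offset, where 8 were higher). Limk1, the kinase that inactivates cofilin, had 25.3, 31.7 and 25.9 CPM in Rescue and 7.5, 10.7 and 6.4 CPM in PKP4-KO (1.76 ± 0.21, adjusted p = 6.78e-08). Dapk1, a kinase of myosin light chains, had 50.02, 32.5 and 34.6 CPM against 8.29, 8.39 and 8.95 CPM, with WT at 37.4, 47 and 42.6 CPM (2.19 ± 0.20, adjusted p = 7.47e-10). In both genes the groups were separate. Non-muscle myosin IIA (Myh9) rose by 0.85 (adjusted p = 0.000785), but not with the length offset (0.32, adjusted p = 0.0994). The kinases Rock1 and Rock2 had low levels that overlapped, 9.05, 1.47 and 6.14 CPM against 4.02, 1.34 and 1.55 CPM for Rock1 and 13.6, 4.57 and 10.02 CPM against 7.07, 2.52 and 4.65 CPM for Rock2 (adjusted p = 0.0609 and 0.0608). The 1 lower call was lost without replicate 2 or without replicate 3 of PKP4-KO.

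Genes that drive actin assembly rose where they were called. Of 31 genes of Arp2/3, WASP/WAVE and formins, 18 were higher and 0 lower (median 0.58), among them Wasl (N-WASP, 1.47), Nckap1 of the WAVE complex (1.51), Cyfip2 (3.64) and the formins Daam1 (1.65) and Fmnl2 (1.56). Of 23 actins, tropomyosins and targets of the actin-sensitive factor SRF, 10 were higher and 3 lower (median 0.35). Cnn3, an actin-binding calponin, had 129.8, 94 and 139 CPM in Rescue, 11, 5.95 and 11.5 CPM in PKP4-KO and 156, 142 and 158 CPM in WT, and so the 6 libraries of Rescue and WT lay well above those of PKP4-KO (3.66 ± 0.23 for Rescue against PKP4-KO, adjusted p = 5.27e-13). Tpm2, a tropomyosin, fell from 542, 257 and 277 CPM in PKP4-KO to 146, 206 and 199.95 CPM (-0.96 ± 0.21, adjusted p = 0.000498). Actb followed replicate 2 of both groups, with 2625, 10481 and 3275 CPM in Rescue and 1739.5, 6952 and 2316 CPM in PKP4-KO, and did not pass the test (adjusted p = 0.468). Without Rescue replicate 2, and with the length offset, 1 of the actin assembly genes was called lower.

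**Figure D4:**
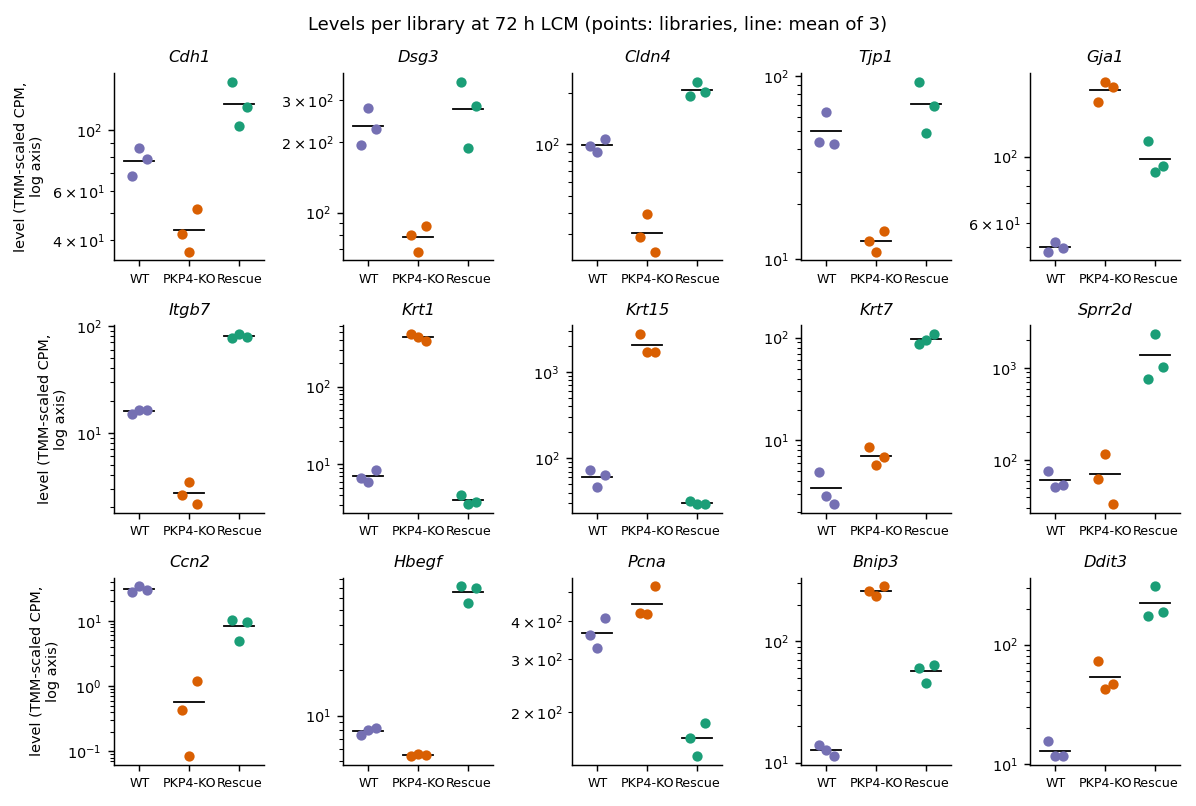
CPM of 15 named genes in each library of WT, PKP4-KO and Rescue at 72 h LCM, on log axes with 1 point per library. Cdh1, Dsg3, Cldn4, Tjp1 and Itgb7 were higher in Rescue than in PKP4-KO, whereas Krt1, Krt15, Gja1, Pcna and Bnip3 were lower, and in these 10 genes no Rescue library overlapped a PKP4-KO library.

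Adhesion to the matrix was marked by integrins. 8 of 12 tested integrin genes rose and 0 fell (median 0.98). Itgb7, a β subunit better known from lymphocytes, had 77, 83.9 and 78.9 CPM in Rescue, 2.62, 3.44 and 2.15 CPM in PKP4-KO and 14.8, 16.2 and 16.4 CPM in WT, a difference of 29.5-fold (4.88 ± 0.26, adjusted p = 1.44e-14). Itga6, which pairs with integrin β4 in hemidesmosomes, had 258, 109 and 200.01 CPM in Rescue and 61.3, 45.5 and 74.5 CPM in PKP4-KO (1.64 ± 0.31, adjusted p = 0.0001). Itgb4 itself overlapped, with 180.03, 173 and 182 CPM against 137, 203 and 181 CPM (0.04 ± 0.15, adjusted p = 0.869). Of 9 hemidesmosome and laminin-332 genes, 5 rose, with Lama3 at 1.5, and 0 fell.

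Of 28 focal adhesion adaptors, 13 were higher and 8 lower (median 0.35, and 8 and 8 with the length offset). Parvb, encoding β-parvin, had 8.79, 9.87 and 9.5 CPM in Rescue and 0.061, 0 and 0 CPM in PKP4-KO, where only 1 read was counted in all, and the ratio was 448 (exact 95% counting interval 80 to 1.77e+04). It was near 0 in WT as well, at 0, 0 and 0.0909 CPM, so that it exceeded 0.1 CPM only in Rescue. Nedd9, a scaffold of focal adhesions, fell from 30.4, 30.9 and 36.1 CPM to 7.59, 4.34 and 9.71 CPM, close to the 4.46, 5.43 and 4.59 CPM of WT (-2.16 ± 0.23, adjusted p = 1.34e-08). Tns1 (tensin 1) also fell, by 1.76 on the log2 scale.

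Matrix genes were higher in 12 and lower in 3 of 30 tested collagens and other matrix genes. Sparc, a collagen-binding matrix protein, had 326, 359 and 365 CPM in Rescue, 53.7, 64.2 and 71 CPM in PKP4-KO and 435, 438 and 437 CPM in WT (2.47 ± 0.13, adjusted p = 1.48e-14). Fbln2 (3.19), Fbln1 (2.73), Lamb1 (2.78), Thbs1 (2.65) and fibronectin (Fn1, 1.83) rose with it, while the collagen gene Col16a1 fell (-2.0). Of 18 matrix proteases and inhibitors, 7 rose and 4 fell. Plaur, the urokinase receptor, went from 2.56, 3.35 and 3.5 CPM in PKP4-KO to 51.8, 68.3 and 62.9 CPM in Rescue, above the 4.11, 3.96 and 5.64 CPM of WT (4.28 ± 0.23, adjusted p = 1.29e-14). The inhibitors Timp2 and Timp3 moved in opposite directions. Timp3 fell from 21.5, 32.1 and 40.4 CPM to 1.65, 0.957 and 1.05 CPM (-4.64 ± 0.41, adjusted p = 4.59e-10), and Timp2 rose from 12.4, 4.86 and 9.15 CPM to 89.3, 67.6 and 103 CPM (3.29 ± 0.24, adjusted p = 1.02e-11). The gelatinase gene Mmp2 fell by 3.56 on the log2 scale (adjusted p = 2.57e-10). Without PKP4-KO replicate 1, 4 of the proteases and inhibitors were higher.

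Keratin transcripts of the basal layer were lower in Rescue. Of 8 tested basal and stress keratins, 4 fell and 1 rose, with a median of -0.42, but without TMM factors 3 fell and 3 rose with a median of -0.08, and with the length offset 3 fell and 2 rose with a median of -0.15. Krt5 had 12082, 15996 and 14108 CPM in Rescue and 25595, 30612 and 26552 CPM in PKP4-KO, and Krt14, its partner, 18696, 20736 and 22775 CPM against 43862, 32932 and 32923 CPM. Both fell by close to 1 on the log2 scale (-0.97 ± 0.18 and -0.82 ± 0.15). Krt15, a keratin of basal cells with stem cell character, showed a much larger gap, with 32.2, 29.4 and 29.8 CPM in Rescue, 2762, 1699 and 1711 CPM in PKP4-KO and 73.2, 46.2 and 63.8 CPM in WT (-6.08 ± 0.31, adjusted p = 4.71e-15). The stress keratin Krt6a overlapped, at 21261, 22700.0 and 23692 CPM and 21364, 24899 and 22145 CPM (-0.02 ± 0.13, adjusted p = 0.938).

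The first keratins of the spinous layer fell in the same way. Krt1 had 3.99, 3.09 and 3.31 CPM in Rescue, 476, 435 and 386 CPM in PKP4-KO and 6.72, 5.98 and 8.55 CPM in WT (-6.95 ± 0.60, adjusted p = 2.53e-10). Its partner Krt10 had 12.5, 14.2 and 11.4 CPM, 1299.7, 542 and 609 CPM and 38, 29.8 and 33.3 CPM in that order (-6.01 ± 0.47, adjusted p = 2.88e-11). In both genes Rescue lay below WT, and PKP4-KO far above. The suprabasal list of 7 held 4 rises beside these falls, and 3 members fell in all, the third being Krt24 (1 read in Rescue, ratio of PKP4-KO to Rescue 448, exact 95% counting interval 79.8 to 1.77e+04). Keratins of other stratified epithelia rose, namely Krt4 (2.98), Krt78 (2.89) and Krt80 (1.26). Of 6 keratins of simple epithelia, 5 rose and 0 fell, led in level by Krt23 and Krt7. Krt7 had 86.2, 95.7 and 109 CPM in Rescue, 8.72, 5.79 and 6.9 CPM in PKP4-KO and 4.97, 2.89 and 2.41 CPM in WT (3.76 ± 0.25, adjusted p = 8.65e-13), while Krt8 rose from a low level, 0.183, 0.0839 and 0.20 CPM to 1.87, 3.68 and 1.99 CPM.

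Genes of the cornified envelope and barrier, which keratinocytes switch on at the end of differentiation, were higher in 34 and lower in 8 of 64 tested members (median 1.2). Involucrin (Ivl), an early envelope protein, had 84.3, 62.8 and 91.4 CPM in Rescue, 23.9, 8.72 and 11.4 CPM in PKP4-KO and 30.1, 26 and 27 CPM in WT (2.43 ± 0.28, adjusted p = 5.24e-08). Loricrin (Lor), the main late envelope protein, had 66, 66.1 and 55.6 CPM, 22.4, 6.71 and 6.2 CPM and 18.6, 10.8 and 13.6 CPM in that order (2.4 ± 0.37, adjusted p = 5.55e-06). Rescue exceeded both other groups in each library of these genes. Tgm1, the enzyme that cross-links the envelope, had 342, 427 and 349 CPM against 124, 154 and 104 CPM (1.55 ± 0.20, adjusted p = 4.71e-07). Lipid genes of the barrier rose as well, with Abca12 (2.89), which loads lamellar bodies, Cers3 (1.88) and Elovl4 (1.99) of ceramide synthesis, and the lipoxygenases Aloxe3 (2.12) and Alox12b (1.89). Corneodesmosin (Cdsn) rose by 2.3. Without PKP4-KO replicate 1, 4 members were lower.

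The small proline-rich proteins of the Sprr2 family, which share sequence so that their counts are uncertain between copies, moved in both directions. Sprr2d had 764, 2347 and 1034 CPM in Rescue and 63.2, 116 and 33.4 CPM in PKP4-KO, each highest in replicate 2 (4.29 ± 0.53, adjusted p = 1.51e-07), and Sprr2e, Sprr2i and Sprr2k rose by 4.57, 4.06 and 3.95. Sprr2a3 fell from 533, 996 and 732 CPM to 34.8, 63.8 and 46.4 CPM (-3.96 ± 0.30, adjusted p = 1.67e-11). Filaggrin (Flg), a late granular protein, was among those that fell, from 11.5, 4.7 and 3.55 CPM to 0.696, 0.957 and 0.315 CPM (-3.34 ± 0.70, adjusted p = 0.00032). Of 13 tested S100 genes, 1 rose (S100a7a, 1.07) and 1 fell (S100a3, -1.57), with 5 higher under the length offset. S100a7a lost its call without Rescue replicate 2 (0.74, adjusted p = 0.101) and without PKP4-KO replicate 3 (0.93, adjusted p = 0.0714). Without Rescue replicate 2, 2 S100 genes were lower.

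Of 27 transcription factors of keratinocytes, 13 rose and 7 fell. Trp63, the master factor of stratified epithelia, overlapped at 199.7, 98.8 and 161 CPM and 195, 154 and 232 CPM (-0.34 ± 0.27, adjusted p = 0.34), but passed as lower with the length offset (-0.71, adjusted p = 0.000952). Zfp750, a p63 target that turns on late differentiation, had 149.5, 124 and 142 CPM in Rescue, 37.1, 44.7 and 45.6 CPM in PKP4-KO and 55.9, 62.8 and 66.8 CPM in WT (1.71 ± 0.15, adjusted p = 2.84e-10). Grhl1, which drives desmosomal cadherin genes, rose by 1.26 (adjusted p = 1.29e-05), and Gata3 and Elf5 rose by 4.13 and 3.55 from low levels. Barx2 fell from 184, 190.5 and 133 CPM to 9.67, 19.1 and 11.4 CPM (-3.67 ± 0.47, adjusted p = 3.37e-07), and Maf and Ovol2 by 1.87 and 1.75 on the log2 scale. Klf4 overlapped (adjusted p = 0.91). In the Notch pathway, 6 of 15 rose and 2 fell (4 with the length offset), with the receptors Notch3 at 2.86 and Notch2 at 1.39.

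Of 12 genes of epithelial-mesenchymal transition, 5 rose and 3 fell, and 3 rose without Rescue replicate 1 or without PKP4-KO replicate 2. Snai1, a repressor of E-cadherin, stood out with 0.11, 0 and 0 CPM in Rescue, 23.2, 39.6 and 27 CPM in PKP4-KO and 0.0502, 0.119 and 0.182 CPM in WT. With 3 reads in all over the Rescue libraries, PKP4-KO exceeded Rescue by a ratio of 576 (exact 95% counting interval 197 to 2.8e+03, log2 fold change -9.06 ± 0.78, adjusted p = 4.88e-10). Rescue and WT were thus both near 0. Twist2 and Foxc2 rose by 2.1 and 2.04. Vimentin (Vim) was below 1 CPM in each of the 6 libraries.

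Several ligands of the EGF receptor family rose in Rescue. Of 23 tested genes of the EGF list, 13 rose and 3 fell. Hbegf had 72.3, 55.8 and 70.4 CPM in Rescue, 5.36, 5.53 and 5.45 CPM in PKP4-KO and 7.37, 8.0 and 8.32 CPM in WT, so that Rescue stood above both other groups by 12.1-fold over PKP4-KO (3.6 ± 0.22, adjusted p = 2.48e-13). Ereg (2.55), Nrg1 (1.59) and Areg (1.03) are further ligands that rose. The feedback phosphatases of ERK diverged, since Dusp5 went from 5.0, 4.03 and 2.55 CPM to 51, 42.9 and 51.8 CPM (3.66 ± 0.28, adjusted p = 2.56e-11) and Dusp6 from 49.1, 55.4 and 59.2 CPM to 22.5, 17.3 and 20.7 CPM (-1.43 ± 0.21, adjusted p = 2.16e-06). The receptor Egfr had 15.2, 12.8 and 15.2 CPM against 7.8, 11.1 and 10.9 CPM (0.54 ± 0.19, adjusted p = 0.0227), a call lost with the length offset (0.01, adjusted p = 0.958). Without Rescue replicate 3, 1 member of the EGF list was lower.

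YAP/TAZ genes, which respond to cell shape and contact, were higher in 15 and lower in 1 of 20 tested (median 1.0). Ccn2, a classical target, had 10.3, 4.86 and 9.5 CPM in Rescue, 0.427, 0.0839 and 1.2 CPM in PKP4-KO and 27.2, 34 and 29.7 CPM in WT (3.7 ± 0.45, adjusted p = 1.51e-07). Rescue thus lay between both other groups. Axl had 159.5, 129 and 135 CPM, 24.8, 33 and 35.2 CPM and 125, 157 and 129 CPM in the same order, so that Rescue and WT overlapped (2.19 ± 0.16 for Rescue against PKP4-KO, adjusted p = 5.04e-12). The DNA-binding partners Tead1 and Tead2 rose by 2.56 and 3.17, and Amotl1 and Amotl2 by 1.67 and 2.33. Yap1 overlapped, at 128, 90.5 and 99.6 CPM and 82.1, 108 and 113 CPM (0.07 ± 0.13, adjusted p = 0.678).

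In the TGF-β and BMP list 8 of 27 rose (29.6%) and 4 fell (14.8%), near the 23.3% and 18.3% over all tested genes. The activin subunit Inhbb had 13.2, 8.69 and 10.9 CPM in Rescue, 0.793, 1.01 and 1.3 CPM in PKP4-KO and 26.3, 30.2 and 31.5 CPM in WT (3.39 ± 0.21, adjusted p = 3.08e-13), and its antagonist follistatin (Fst) 154, 69.4 and 152 CPM against 14.6, 8.13 and 15.9 CPM, beside 6.07, 7.68 and 6.59 CPM in WT (3.27 ± 0.36, adjusted p = 2.23e-08). Without replicate 1 or 2 of Rescue, or replicate 2 or 3 of PKP4-KO, 2 members fell. Among AP-1 and immediate-early factors (6 higher and 4 lower of 17), Fosl1 rose from 26, 31.5 and 18 CPM to 76.6, 158 and 86.7 CPM (2.09 ± 0.28, adjusted p = 7.61e-07), whereas Jun (-1.12) and Maff (-1.4) fell, and Fos and Junb overlapped with adjusted p of 0.756 and 0.313. Of the AP-1 list, 2 were lower without Rescue replicate 1 and 3 higher without PKP4-KO replicate 1.

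Cytokine genes were higher in 15 and lower in 6 of 30 tested. Il1a, an alarmin stored in keratinocytes, had 63.5, 39.5 and 62.2 CPM in Rescue, 8.23, 12.2 and 12.8 CPM in PKP4-KO and 5.47, 6.42 and 8.82 CPM in WT (2.31 ± 0.24, adjusted p = 9.53e-09). Its antagonist Il1rn rose with it (1.79 ± 0.17), as did Il33 (1.73), Il24 (1.13) and the neutrophil chemokine gene Cxcl5 (2.12). The chemokines Cxcl1 and Cxcl14 and the antibacterial lipocalin Lcn2 fell, with Cxcl14 at 12.6, 17.6 and 13.2 CPM against 56.9, 48.4 and 48 CPM (-1.82 ± 0.17, adjusted p = 5.88e-10), Cxcl1 at -0.77 and Lcn2 at -3.78. Without Rescue replicate 1, 3 cytokine genes fell. Interferon-stimulated and antigen presentation genes were called in both directions, with 4 higher and 4 lower of 23 tested out of 46 in the table (median -0.11, and 0.26 without TMM factors). Each count came to 17.4%, near the 23.3% higher and 18.3% lower over all tested genes. B2m, the light chain of class I molecules, fell from 77.4, 136 and 84.1 CPM to 13.1, 27.2 and 14.9 CPM (-2.43 ± 0.25, adjusted p = 5.49e-09). Without replicate 1 of Rescue or replicates 1 or 2 of PKP4-KO, 2 interferon genes were higher, and without Rescue replicate 2, 7 were lower.

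Cell cycle and DNA replication genes leaned lower in Rescue, with 28 of 56 lower and 5 higher (median -0.38). Without TMM factors 14 were lower and 9 higher, with a median of -0.03. Pcna, the clamp of DNA polymerase, had 164, 143 and 185 CPM in Rescue, 427, 423 and 524 CPM in PKP4-KO and 359.6, 327 and 412 CPM in WT (-1.48 ± 0.13, adjusted p = 4.57e-10). Cdk1, the kinase of mitotic entry, had 114, 111 and 125 CPM, 238, 242 and 248 CPM and 173, 141 and 163 CPM in that order (-1.06 ± 0.12, adjusted p = 2.15e-08). In both genes PKP4-KO was the highest and Rescue the lowest group with no overlap. Gins1 (-1.62), Ccnd3 (-1.29) and E2f1 (-0.95) fell too, whereas Ccne1 rose (0.73). Mki67 and Top2a, the usual markers of dividing cells, overlapped (log2 fold changes 0.71 and 0.14, adjusted p = 0.154 and 0.751). The count of higher members was 8 without Rescue replicate 2, and 3 without Rescue replicate 1 or 3 or PKP4-KO replicate 2.

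The p53 targets and cell cycle inhibitors were divided into 9 that rose and 8 that fell of 29. The inhibitors Cdkn2c and Cdkn2d fell, Cdkn2c from 63.2, 42.9 and 63.9 CPM to 8.1, 4.71 and 8.87 CPM (-2.96 ± 0.25, adjusted p = 2.04e-10) and Cdkn2d by 2.11 on the log2 scale. Gadd45a rose from 23.2, 10.9 and 13.7 CPM to 58.7, 52.1 and 62.3 CPM (1.85 ± 0.20, adjusted p = 1.2e-08), and the AMPK-linked stress gene Sesn2 by 2.07. Cdkn1a (p21) overlapped, at 506, 874 and 511 CPM and 459.96, 946 and 523 CPM (-0.03 ± 0.27, adjusted p = 0.948).

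Glycolysis and hypoxia genes were lower in Rescue in 23 of 35 tested members and higher in 5 (median -0.91). In hypoxia the factor HIF-1 binds a core written RCGTG, and the 3 members with the largest falls and at least 5 CPM are shown with the 250 bases before their RefSeq start (GRCm38.p6), read in the direction of the gene, with matches to ACGTG or GCGTG on either strand in capitals.
Ankrd37, chr8:45999851-46000100: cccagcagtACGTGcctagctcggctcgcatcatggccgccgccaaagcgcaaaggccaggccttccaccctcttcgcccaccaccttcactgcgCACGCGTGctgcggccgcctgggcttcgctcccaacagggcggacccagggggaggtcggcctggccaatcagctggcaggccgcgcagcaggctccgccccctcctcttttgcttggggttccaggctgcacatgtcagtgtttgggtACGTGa
P4ha1, chr10:59323046-59323295: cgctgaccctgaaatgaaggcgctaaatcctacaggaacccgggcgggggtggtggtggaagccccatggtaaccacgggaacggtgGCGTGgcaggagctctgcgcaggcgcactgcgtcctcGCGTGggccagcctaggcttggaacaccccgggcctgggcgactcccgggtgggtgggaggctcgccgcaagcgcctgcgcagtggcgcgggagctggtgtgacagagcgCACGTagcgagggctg
Bnip3, chr7:138909507-138909756: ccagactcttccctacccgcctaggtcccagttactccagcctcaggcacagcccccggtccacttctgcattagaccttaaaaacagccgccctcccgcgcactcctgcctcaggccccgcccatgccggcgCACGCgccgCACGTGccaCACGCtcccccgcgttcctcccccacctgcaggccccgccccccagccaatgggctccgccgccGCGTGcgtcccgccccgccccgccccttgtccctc
The core lay in 78.7% of 47 promoters of 33 tested list members, in 76.7% of 30 promoters of the 22 that were lower, in 54.7% of the 13222 promoters of all tested genes found in the table and in 38.6% of all 32851 promoters. A match of 5 letters is a description of the sequence and not a binding site.

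Ankrd37 had 8.1, 15 and 11.9 CPM in Rescue, 111, 118 and 54.9 CPM in PKP4-KO and 2.11, 1.78 and 1.55 CPM in WT (-3.02 ± 0.40, adjusted p = 4.72e-07). P4ha1, a subunit of the collagen prolyl hydroxylase, had 8.98, 5.15 and 9.03 CPM, 42.3, 35.6 and 42.5 CPM and 5.62, 4.59 and 5.41 CPM in that order (-2.37 ± 0.22, adjusted p = 8.23e-10). Bnip3, a mitophagy receptor, had 60.2, 45 and 64 CPM, 260.2, 236 and 284 CPM and 14, 12.6 and 11.3 CPM (-2.2 ± 0.24, adjusted p = 2.17e-08). In these 3 genes each PKP4-KO library lay far above Rescue and WT, and the Rescue mean lay between both other means. Several enzymes of glycolysis fell, with Ldha, which makes lactate, at 1983, 2131 and 2233 CPM in Rescue, 5348, 5716 and 5484 CPM in PKP4-KO and 1348, 1095 and 1307 CPM in WT (-1.38 ± 0.13, adjusted p = 9.44e-10), and Tpi1 (-1.45), Pfkp (-1.7) and Pfkl (-1.59). The hexokinase gene Hk2 went the other way, with means of 305 CPM in Rescue and 141 CPM in PKP4-KO. In the whole list 5 members were called higher. The oxygen sensor Egln1 fell by 1.77 and the glucose transporter Slc2a1 by 0.84 on the log2 scale. Hif1a itself overlapped, at 130.3, 33 and 95.3 CPM and 82.7, 47 and 102 CPM (0.16 ± 0.48, adjusted p = 0.817). The glycolytic enzyme gene Gapdh was decided by replicate 2, with 44.8, 683 and 57.2 CPM in Rescue and 199, 998 and 165 CPM in PKP4-KO, and did not pass the test (adjusted p = 0.539).

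Cholesterol and fatty acid synthesis genes were higher in 19 and lower in 1 of 35 (median 0.66). Lss, lanosterol synthase, had 171, 134 and 159.5 CPM in Rescue and 59.8, 46.2 and 61.2 CPM in PKP4-KO, beside 56.4, 58.6 and 56.4 CPM in WT (1.47 ± 0.16, adjusted p = 1.12e-08). Fatty acid synthase (Fasn) rose by 1.37, Hsd17b7 by 1.76, and malic enzyme (Me1), which supplies NADPH, by 2.01. The desaturase Scd1 was the one that fell, from 26.8, 41.8 and 39.2 CPM to 2.38, 2.06 and 2.41 CPM, with WT below 1 CPM (-3.96 ± 0.61, adjusted p = 5.54e-06). Without Rescue replicate 2, 2 members were lower, and with the length offset 3.

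Genes of the integrated and endoplasmic reticulum stress responses were higher in 20 and lower in 1 of 32 (median 0.68). Ddit3 (CHOP), a late factor of both responses, had 172, 309 and 186 CPM in Rescue, 72.4, 42.8 and 46.9 CPM in PKP4-KO and 15.5, 11.6 and 11.6 CPM in WT (2.04 ± 0.26, adjusted p = 2.12e-07). The chaperone Hspa5 (BiP) had 371, 328 and 306 CPM, 171, 77.7 and 118 CPM and 168, 166 and 168 CPM in that order (1.45 ± 0.20, adjusted p = 9.6e-07). Rescue exceeded WT in both genes. Chac1 (2.08), Herpud1 (1.65) and Xbp1 (1.09) rose as well, while Atf4, regulated mainly in translation, overlapped (adjusted p = 0.259). Of 27 antioxidant targets of NRF2, 12 rose and 5 fell. Gsta3, a glutathione transferase, had 63.8, 71.6 and 73.7 CPM in Rescue and 9.33, 8.39 and 10.3 CPM in PKP4-KO (2.9 ± 0.14, adjusted p = 2.19e-15), Txnrd1 rose by 1.5, and Gclm, of glutathione synthesis, fell from 50.4, 44.2 and 58.8 CPM to 15.5, 9.65 and 18.6 CPM (-1.81 ± 0.30, adjusted p = 1.38e-05).

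Homeobox genes of the Hox and Cdx families, which carry the positional identity of cells, were lower in 15 and higher in 2 of 27 tested (median -1.64), with 42 in the table. Hoxc5 had 0.183, 0.442 and 0.262 CPM in Rescue, 15.3, 20.1 and 14.7 CPM in PKP4-KO and 0, 0.0792 and 0.136 CPM in WT (-5.89 ± 0.46, adjusted p = 2.67e-11). Hoxa7 had 1.94, 5.15 and 2.15 CPM, 27.2, 39.9 and 19.8 CPM and 0.401, 0.158 and 0.182 CPM in that order (-3.26 ± 0.56, adjusted p = 2.89e-05). Rescue and WT stayed at 5.15 CPM or lower in both genes, below each PKP4-KO library. Cdx2 (-4.9), Hoxd8 (-4.26), Hoxc6 (-3.5) and Hoxc9 (-3.0) fell as well. Without replicate 2 or 3 of Rescue, or replicate 1 or 3 of PKP4-KO, 1 member was higher.

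Ribosomal protein and respiratory chain genes, which are short, leaned lower. None of 80 cytosolic ribosomal protein genes rose and 29 fell (median -0.84, at a median length of 1775.5 bp against 3825 bp for all tested genes). Of 79 nuclear genes of oxidative phosphorylation, 0 rose and 34 fell (median -0.93). Both lists lie in the range of length in which replicate 2 stood apart, and the counts moved with single libraries. Without replicate 2 of both groups 41 ribosomal and 42 respiratory genes fell, and with the length offset 29 and 35. Without Rescue replicate 2 alone 72 of each list fell, without Rescue replicate 1 15 ribosomal and 22 respiratory genes did, without PKP4-KO replicate 1 18 ribosomal genes, and in a fit of the 6 libraries alone 8. Rps6 had 2054, 3234 and 2614 CPM in Rescue and 9081, 6129.7 and 5831 CPM in PKP4-KO (-1.41 ± 0.21, adjusted p = 3.45e-06), and cytochrome c (Cycs) 164, 351 and 236 CPM against 822, 903 and 751 CPM (-1.72 ± 0.25, adjusted p = 2.98e-06). Ribosomal protein genes have many processed copies in the genome, so that their counts are uncertain.

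The largest rises among protein-coding genes with at least 5 CPM in each Rescue library were Parvb, Vcan, Pxdn, Shroom1, Prl2c5, Wfdc2, Msln, Prl2c2, Prl8a9, Prl2c3, Spred3 and Gcnt3. Msln, mesothelin, had 126, 125 and 134 CPM in Rescue, 2.01, 0.839 and 2.35 CPM in PKP4-KO and 89.6, 86.4 and 97.2 CPM in WT (6.16 ± 0.26, adjusted p = 1.09e-16). Versican (Vcan, 12.4, 5.6 and 9.92 CPM in Rescue with a ratio of 162 and an exact 95% counting interval of 55.3 to 789.6) and peroxidasin (Pxdn, 17.7, 10.02 and 13.5 CPM), both of the matrix, were likewise near 0 in PKP4-KO and expressed in WT, at 4.01, 5.47 and 3.91 and 13.9, 19.2 and 16.7 CPM. A different pattern held for prolactin family genes. Prl8a9 had 35.4, 44 and 39.2 CPM in Rescue, 0.549, 0.419 and 0.75 CPM in PKP4-KO and 1.91, 1.07 and 0.728 CPM in WT (6.05 ± 0.37, adjusted p = 1.8e-13), and Prl2c2, Prl2c3 and Prl2c5, near-identical copies whose counts are uncertain, rose by 6.15, 5.98 and 6.41 and were low in WT too.

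The largest falls, with at least 5 CPM in each PKP4-KO library, were Snai1, Foxd1, Rbp7, Eya2, Cyp4b1, Popdc3, Akr1c18, Krt1, Ntrk2, Aldh3a1, Calr4 and Mn1. Foxd1, a forkhead factor, had 0.11, 0 and 0 CPM in Rescue, 18.5, 12.5 and 22.8 CPM in PKP4-KO and 1.3, 1.07 and 1.77 CPM in WT (ratio of PKP4-KO to Rescue 376, exact 95% counting interval 128 to 1.83e+03). Eya2, a transcriptional coactivator, had 0.147, 0.221 and 0.105 CPM, 24.6, 26.1 and 20.7 CPM and 0.10, 0.198 and 0.0455 CPM (-7.23 ± 0.46, adjusted p = 2.27e-11). Of these 12 genes only Aldh3a1, a detoxifying dehydrogenase, was above 10 CPM in each WT library, at 17.1, 13.3 and 15.1 CPM, between 0.586, 0.663 and 1.1 CPM in Rescue and 61, 66.3 and 56.9 CPM in PKP4-KO (-6.29 ± 0.32, adjusted p = 4.42e-15). Along the genome, chromosome medians of the log2 fold change ran from -0.14 (chromosome 4) to 0.22 (chromosomes 19 and X), apart from 4.76 for the 9 tested genes of the Y chromosome.

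The comparison of 72 h LCM was then set beside Rescue against PKP4-KO in the 2 conditions that share no library with it. At 24 h LCM 5089 genes (33.7%) were called, 18.2% higher and 15.5% lower, and 3695 were called in the same direction at both times, 58.9% of the calls at 72 h and 72.6% of those at 24 h, with 64 in opposite directions. At 72 h HCM 10082 genes (66.7%) were called, 37.2% higher and 29.5% lower, and 4396 shared the direction, 70.0% of the LCM and 43.6% of the HCM calls, with 407 in opposite directions. Of the 12 largest rises, 12 were called in the same direction in each of both other conditions, and of the 12 largest falls 10 at 24 h LCM and 11 at 72 h HCM. The difference of the Rescue effect itself passed the test for 794 genes (5.25%) between 72 h and 24 h LCM and for 4765 genes (31.5%) between LCM and HCM at 72 h. Without PKP4-KO replicate 3 of 24 h LCM the first count was 503, and without TMM factors the second was 7353. The TMM factors of the 72 h HCM libraries stood apart, at 0.481 to 0.546 in PKP4-KO and 1.16 to 1.19 in Rescue, and their part in the HCM comparison was not tested further.

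**Figure D5:**
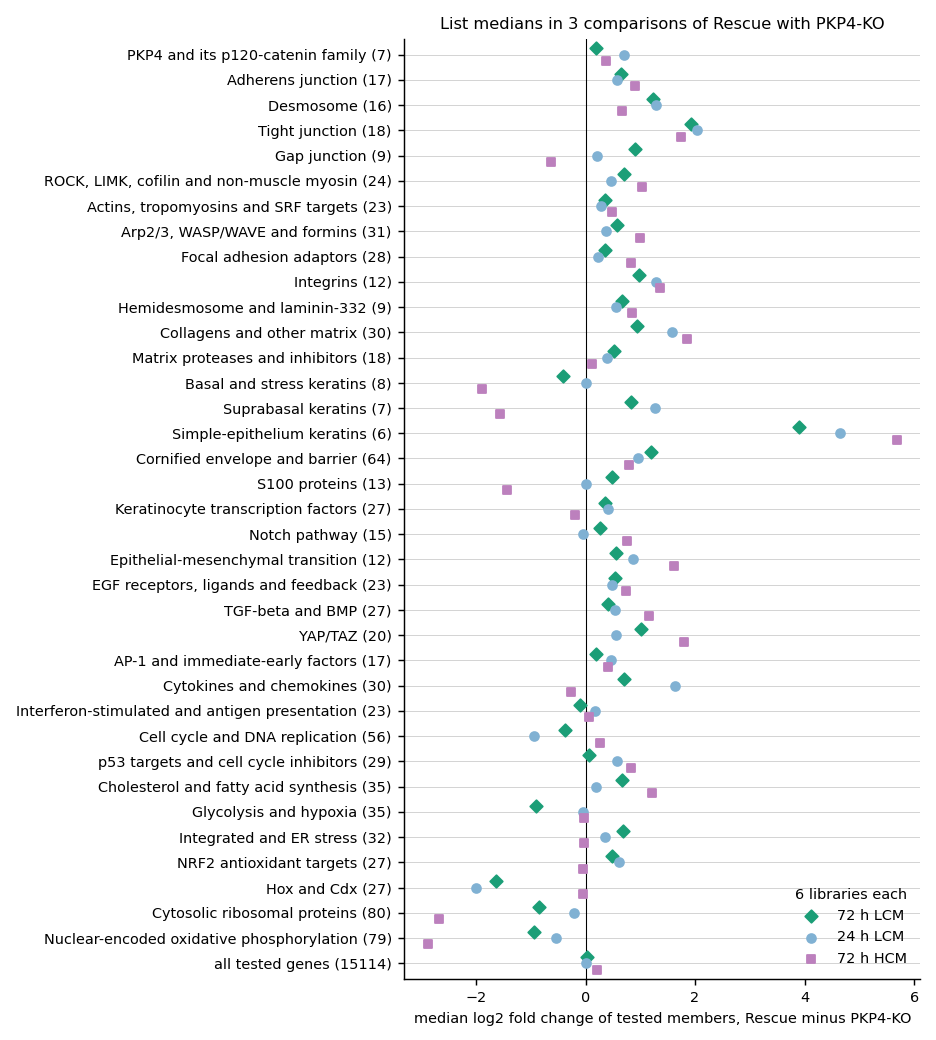
Median log2 fold change of Rescue against PKP4-KO over the tested members of each gene list at 72 h LCM, 24 h LCM and 72 h HCM. Tight junction genes had medians of 1.92, 2.04 and 1.74, and glycolysis and hypoxia genes -0.91, -0.06 and -0.03.

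Between 24 h and 72 h in LCM, glycolysis and hypoxia genes and cytokines moved to lower Rescue effects, and cell cycle genes to higher ones. Of the glycolysis and hypoxia list 12 members had a lower effect at 72 h and 0 a higher one, and the median went from -0.06 to -0.91. The background in each direction was 2.65% lower and 2.61% higher. Slc2a1 is an example, with a log2 fold change of 0.35 at 24 h and -0.84 at 72 h (difference -1.19 ± 0.19, adjusted p = 0.000273). Of the cytokines 11 were lower in effect and 0 higher. Of the cell cycle genes 16 had a higher effect and 0 a lower one, their median rising from -0.93 to -0.38. Krt1 had an effect of -1.46 at 24 h, where Rescue had 8.78 ± 10.9 CPM and PKP4-KO 23.9 ± 13 CPM (mean ± SD, n = 3), against -6.95 at 72 h (difference -5.49 ± 0.71, adjusted p = 1.56e-05). Pkp2 turned round, from 2.47 at 24 h to -1.28 at 72 h (difference -3.75 ± 0.59, adjusted p = 0.000167). Of 18 tight junction, 16 desmosome and 17 adherens junction genes, 0, 0 and 0 were higher and 1, 1 and 0 lower in effect at 72 h. In lists of this size such counts cannot be told apart from the background of 2.61% higher and 2.65% lower.

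Between HCM and LCM at 72 h, the effect on ribosomal genes often differed, with 56 of 80 higher in effect in LCM and 0 lower (background 13.4% higher and 18.1% lower), from a median of -2.68 in HCM to -0.84 in LCM. Respiratory genes had 37 higher and 2 lower in effect. Among junction genes, 7 of 16 desmosome and 7 of 18 tight junction members had a higher effect in LCM, and 1 and 1 a lower one. The adherens junction list was divided, with 5 of 17 higher and 6 lower in effect in LCM, and so was the p120-catenin family, with 2 higher and 3 lower of 7. Cldn4 rose by 2.77 in LCM but stood at -0.02 in HCM, where Rescue had 167 ± 15.1 CPM and PKP4-KO 169 ± 36.9 CPM (difference 2.78 ± 0.24, adjusted p = 2.94e-09). Gjb2 was higher in Rescue in LCM and lower in HCM (-2.25), with a difference of 4.19 ± 0.30 (adjusted p = 5.41e-11). Stress genes differed in the same sense, 18 of 32 with a higher and 2 with a lower effect in LCM, and Ddit3 stood at -2.35 in HCM (difference 4.39 ± 0.36, adjusted p = 1.12e-09). Focal adhesion adaptors went the other way, 11 lower and 1 higher in effect, and so did glycolysis and hypoxia genes, 15 lower and 1 higher. Bnip3, which fell in LCM, was at 0.19 in HCM (difference -2.39 ± 0.33, adjusted p = 4.62e-06). The HCM values are scaled with TMM factors of 0.481 to 0.546 in PKP4-KO and 1.16 to 1.19 in Rescue. Against library sizes alone these lower each Rescue effect in HCM, those of Cldn4 and the ribosomal genes included. Such effects without TMM factors are not given here, but 7353 genes then differed between both media.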

How the data were processed

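RNA from 36 libraries was deposited by the authors as whole-number counts per gene, without normalization. The authors selected poly(A) RNA, sequenced stranded read pairs, aligned them with HISAT2 (2.1.0 per the submitters' processing notes) to mm39 with GFP-PKP4 added, filtered alignments with SAMtools 1.10 and assigned them to Ensembl GRCm39 genes with featureCounts 2.0.0. The strand setting of counting is not given in the sources used here. Groups came from the labels.

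The table held 55358 genes. Counts were tested in R 4.3.3 with edgeR 4.0.16 (filterByExpr, TMM factors, quasi-likelihood test, 1 mean for each of 12 groups, 24 residual degrees of freedom), with Benjamini-Hochberg adjustment over 15114 genes and calls at an adjusted p below 0.05. SE is the log2 fold change divided by the square root of F. CPM are counts relative to TMM-scaled library sizes, and the libraries totalled 13602728 to 22467187 counts. Where the lower group had 1 to 3 reads in all, a ratio with an exact 95% interval is given, which covers counting error only. Permutation tests were exact and two-sided. The labels do not state separate animals for the replicates, so p-values measure the spread between libraries, which may be technical. Same-numbered libraries of Rescue and PKP4-KO deviated together from their group means (correlations across genes of 0.28, 0.68 and 0.32). The 3 deviations of a group sum to 0, so the shift shared by replicate 2 can raise the values of replicates 1 and 3. Differently numbered libraries were not compared, so whether the numbers pair the libraries was not tested. The main fit left pairing out. Alternatives were DESeq2 1.42.0, other scaling and filters, fewer libraries, a replicate block and offsets for neighbouring genes and gene length. The length offset, the replicate block within the 6 libraries and the fits without replicate 2 of both groups were chosen after seeing the data.

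On simulated counts for the comparison of Rescue with PKP4-KO (14650 genes, 200 changed), the fit called 39% of changes of 1 and 91% of changes of 2 on the log2 scale, with 5 false calls among 135. Apart from the changed genes, the simulated libraries shared the same gene means. They held no trend with gene length and no shift of replicate 2. These rates therefore do not carry over to the real comparison, where far more genes were called.

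Members and gene lists were chosen with earlier results of these data known, so that no list is independent evidence. Named genes were GFP-PKP4 and Pkp4, the 12 protein-coding genes with the largest rise and the 12 with the largest fall among those called, with at least 5 CPM in each library of the higher group and no overlap, up to 6 called members of each list by size of change with at least 5 CPM on average, other list members where a statement turns on them, and the 5 most positive and 5 most negative differences of effects in each direction of comparison. Further list members were named after their values were seen. Promoter sequences came from RefSeq (GRCm38.p6), matched by symbol for 10323 of the tested genes, and exon 9 from GRCm39, where 98.9% of gene identifiers were found. A few genes and 1 gene list are not reported here.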

Additional observations from a re-analysis of the deposited data

Results flagged for a closer look

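The Rescue effect (log2 fold change of Rescue against PKP4-KO) differed between 72 h and 24 h in LCM for 794 genes, and 64 genes were called in opposite directions. The genes below were singled out because the difference of the effects passed the edgeR quasi-likelihood test after adjustment over all tested genes. Groups of 3 libraries were not searched for single outlying samples.

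The effect on Rbp7, a retinol-binding protein, went from -1.94 at 24 h to -7.56 at 72 h. The difference of -5.62 lost its call when any 1 of 6 libraries was left out, namely replicate 1 or 3 of Rescue or replicate 1 of PKP4-KO at 72 h, or replicate 1 or 3 of Rescue or replicate 3 of PKP4-KO at 24 h (-5.82 to -4.20). Akr1c18, a steroid dehydrogenase, had a difference of -5.61, which was -0.54 (adjusted p = 0.871) without Rescue replicate 3 of 24 h LCM. Krt1 had -5.49, and the angiogenic factor Pgf -5.44, lost without the same Rescue library (-4.98, adjusted p = 0.0612). Selenbp1, a selenium-binding protein, had -5.23, going from 0.39 at 24 h to -4.84 at 72 h. Pkp2 (-3.75) and Maff (-2.09) were called higher at 24 h and lower at 72 h, the 72 h call of Pkp2 being lost without TMM factors (adjusted p = 0.0593). Positive differences were 4.89 for Pbp2, 3.11 for Syn3, 3.02 for Txnip, 2.98 for Klra4 and 2.71 for Adam12. Txnip, an inhibitor of thioredoxin, had an effect of -3.96 at 24 h and -0.94 at 72 h.

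Between LCM and HCM at 72 h the effect differed for 4765 genes, and 407 were called in opposite directions. The largest positive differences were 7.12 for Lst1, 6.82 for Cphx1, 6.41 for the metallothionein Mt4, 6.12 for the inflammasome adaptor Pycard and 5.92 for Clec2d. Lst1 and Clec2d lost the call without Rescue replicate 2 of 72 h LCM (2.90 and 3.17, adjusted p = 0.379 and 0.221), and Cphx1 without Rescue replicate 1 (6.21, adjusted p = 0.0891). The largest negative differences were -8.39 for Rnf128, -7.59 for Csf1r, -5.80 for Serpinb6b, -5.78 for Tmprss11f and -5.00 for Gpsm1, that of Serpinb6b being lost without PKP4-KO replicate 3 of 72 h LCM (-3.97, adjusted p = 0.260).

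Several listed genes were called in opposite directions in both media. In LCM the effect was higher, and in HCM it was lower, for the connexins Gjb2 (difference 4.19) and Gjb5 (1.94), for Nectin4 (2.42), Rnd1 (1.92), Krt13 (2.40), Zfp750 (2.63), Ddx58 (1.66) and Ddit3 (4.39). The reverse held for Pkp2 (-2.71), Tns1 (-2.42), Col16a1 (-2.71) and Ovol2 (-2.35). The HCM libraries had TMM factors of 0.481 to 0.546 in PKP4-KO and 1.16 to 1.19 in Rescue, which lower each Rescue effect in HCM. Effects in HCM are not given here without these factors, so the falls in HCM are stated for this scaling only.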

How the results depend on the processing

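The number of called genes stayed within 1.5 times of 6278 under each alternative but the fit of the 6 libraries alone, which called 3663 genes, 2078 higher and 1585 lower. It lay between 4978 and 7009 without single libraries (2775 to 3858 higher, 2203 to 3151 lower, and 2964 to 4361 with a change of at least 1 on the log2 scale). Without TMM factors 1461 genes were lower and 7353 differed between LCM and HCM. With at least 10 counts in each of the 6 libraries 2328 genes changed by at least 1. The differences of effects ranged from 503 to 945 genes between both times without single libraries, with 503 reached without PKP4-KO replicate 3 of 24 h LCM, and from 3245 to 5804 between both media. DESeq2 called 6639 genes. The replicate block, which pairs same-numbered libraries, called 6166 genes over all 36 libraries and 6516 within the 6, and among the named genes 1 value, that of Snai2 (0.48), lost its call with the block of all libraries and none with the other.

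GFP-PKP4 ranged from 7.32 to 8.09. Pkp4 ranged from -0.48 (without PKP4-KO replicate 2) to -0.16 without single libraries, reversed to 0.0134 (adjusted p = 0.975) without TMM factors, and was lower and called with the offset for neighbouring genes (-0.70), for gene length (-0.56 and, in each library, -0.57) and for length without replicate 2 (-0.64). The cause was not tested. Of the values of the other named genes under all alternatives, 4221 kept direction and call and 130 kept the direction only, and 29 values lost their call without 1 library. Counts of list members stayed within 1.5 times in 1251 cases and moved further in 155. Depth limits values below the 0.134 to 0.195 CPM that 3 counts give in these 6 libraries.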

Other observations

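Of 6 tested genes of a list of heat shock and nuclear RNA genes, 3 fell and 1 rose. Dnajb1, a co-chaperone, had 99.1, 100.4 and 104.6 CPM in Rescue, 249.6, 209 and 223 CPM in PKP4-KO and 159, 130.2 and 145 CPM in WT (-1.16 ± 0.12, adjusted p = 3.95e-09, edgeR). Hspa1b, an inducible Hsp70, had 36, 23.3 and 30.9 CPM, 95.6, 65.7 and 119 CPM and 77.4, 93 and 82.9 CPM in that order (-1.63 ± 0.35, adjusted p = 0.000443), and its near-identical copy Hspa1a fell by 1.34 on the log2 scale, a call lost without TMM factors (adjusted p = 0.108), with counts that are uncertain between both copies. Hsph1 had overlapping groups (adjusted p = 0.747). The nuclear RNA Neat1 rose from 18.1, 8.72 and 13.6 CPM to 54.4, 60.8 and 43.3 CPM (1.96 ± 0.23, adjusted p = 5.01e-08), whereas Malat1 had 3.92, 2.58 and 2.83 CPM in Rescue and 1.34, 2.18 and 1.3 CPM in PKP4-KO (adjusted p = 0.104, and 0.0302 without TMM factors). Krt20, a keratin of Merkel cells and simple epithelia, had 3.11, 4.64 and 3.31 CPM in Rescue and 3 reads in all in PKP4-KO (ratio 56.7, exact 95% counting interval 19.1 to 277), while Atoh1, the defining factor of Merkel cells, had no read. All 37 mitochondrial genes were listed at 0 in each library.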
